A study of Mus musculus with 4 samples.

Results

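Transcripts of interferon regulatory factors (IRF), signal transducers and activators of transcription (STAT) and suppressors of cytokine signalling (SOCS) were measured in mouse embryonic fibroblasts with and without Xiap, before and after exposure to tumour necrosis factor (TNF). The set was given as 9 genes, and its members were the probe sets annotated to exactly 1 gene symbol among them. This gave 11 probe sets for 7 genes (5 for IRF, 3 for STAT and 3 for SOCS genes), out of 10833 single-symbol probe sets for 8251 genes. Irf1, Stat6 and Socs1 had 1 probe set each, and Irf3, Irf7, Stat3 and Socs3 had 2. Irf2 and Stat2 were matched to no probe set and were not analysed here. Wild-type and Xiap knockout fibroblasts were each profiled unstimulated and after 4 hours with 20 ng/ml TNF (TNFa in the labels), which makes 4 groups. Xiap encodes a caspase inhibitor with ubiquitin ligase activity. All cultures were grown in the same serum-containing medium, and the treated ones were stimulated at confluence. The labels do not say whether a genotype came from 1 embryo, 1 line or a pool.

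Each group was 1 array, so the differences between arrays have no replicate check, no order of levels could be tested against a spread, and precision is limited by how few arrays there are. Values are linear probe set signals. A signal floor of 92.5 was used in logarithms and folds, and signals of different probe sets were not compared with each other. On the 4 arrays 7115 to 7678 of 12422 non-control probe sets exceeded the floor. Of 9 fibroblast markers on the array, 8 or 9 exceeded the floor, and their summed signal was 60129 to 63524. Leukocyte and macrophage markers exceeded it in 4 or 5 of 10 cases (summed signal 2018 to 3157). Cd14 (1534 to 2402), Csf1r (114 to 373), Cd68 (113 to 145) and Laptm5 (112 to 194) exceeded it on all 4 arrays. The leukocyte gene Ptprc stayed at 4.5 to 9.2. Endothelial markers exceeded it in 1 to 3 of 6 cases and epithelial markers in 1 or 2 of 6. Among fibroblast markers Thy1 and Pdgfrb were lower and S100a4 was higher in knockout cells in the limma fit described below for Irf1 (log2 -2.26, -0.79 and 1.68, adjusted p = 0.00171, 0.0162 and 0.000216). Among endothelial markers in wild-type cells, Flt1 went from 155 to 1172 with TNF, whereas Kdr went from 189 to 72.9 and Pecam1 from 104 to 45.9. The part of these differences in the results was not tested. The brightest Xiap probe set read 239 and 126 without and with TNF in wild-type cells, and 181 and 120.1 in knockout cells. The deleted part of the gene is not named in the labels, so these probes do not check the genotype.

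IRF proteins are transcription factors that bind interferon-responsive DNA elements. IRF3 and IRF7 are latent factors activated by phosphorylation after sensing of viral nucleic acid, whereas IRF1 is controlled largely through its own transcription, which NF-kB can drive. STAT proteins carry signals from cytokine receptors and Janus kinases to the nucleus: STAT3 serves the interleukin-6 family and STAT6 serves interleukin-4 and interleukin-13. SOCS1 and SOCS3 are themselves cytokine-induced, and they inhibit Janus kinases or receptors in a negative feedback loop.

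Upstream sequences of the genes whose signals passed 2-fold with TNF in at least 1 genotype are shown because they carry matches to elements known for these pathways. They are the 250 bases before the RefSeq start site (GRCm38.p6), written 5′ to 3′ on the gene's strand, with matches in capitals. The motifs searched on both strands were the STAT element GAS (TTCNNNGAA), the IRF element (GAAANNGAAA) and the kB consensus. Irf1 (chr11:53769764-53770013, plus strand) held a GAS match 90 to 82 bases before the start and a kB match 13 to 4 bases before it, which reads as a match on both strands. A second RefSeq window of Irf1 held none of the motifs. Socs1 (chr16:10785537-10785786, minus strand) held 2 overlapping IRF element matches between 83 and 68 bases before the start. Socs3 (chr11:117969367-117969616, minus strand) held a GAS match 154 to 146 bases before the start.
Irf1: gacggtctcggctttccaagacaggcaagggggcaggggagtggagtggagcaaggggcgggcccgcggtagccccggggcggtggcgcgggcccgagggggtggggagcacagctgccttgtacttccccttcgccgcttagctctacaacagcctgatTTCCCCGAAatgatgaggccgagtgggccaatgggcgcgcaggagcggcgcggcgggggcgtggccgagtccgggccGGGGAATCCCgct
Socs1: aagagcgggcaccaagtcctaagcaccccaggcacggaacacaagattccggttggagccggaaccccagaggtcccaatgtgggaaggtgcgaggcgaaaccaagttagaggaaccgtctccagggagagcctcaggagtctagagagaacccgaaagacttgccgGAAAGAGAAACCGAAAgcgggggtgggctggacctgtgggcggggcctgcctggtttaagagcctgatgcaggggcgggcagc
Socs3: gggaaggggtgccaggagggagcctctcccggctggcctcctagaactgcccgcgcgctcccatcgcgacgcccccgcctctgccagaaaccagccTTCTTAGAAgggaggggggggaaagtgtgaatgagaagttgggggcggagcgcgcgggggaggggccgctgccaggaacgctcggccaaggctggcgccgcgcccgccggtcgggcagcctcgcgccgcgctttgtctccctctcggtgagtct
The windows of Irf3, Irf7, Stat3 and Stat6 held none of these letters. Among all 32851 promoter windows of the same length, 7.02% held a GAS match, 2.98% an IRF element match and 3.9% a kB match. A match is a description of the letters and not evidence of binding.

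Irf1 carried the largest response of the set, and it was high with TNF in both genotypes. Its signal went from 482 without TNF to 2566 with TNF in the wild type, and from 302 to 2748 in the knockout. Both TNF arrays lay far above both unstimulated arrays, and the 2 TNF values were close to each other. The response was 5.32-fold in wild-type cells (log2 2.41, rank 36 of 7846 probe sets) and 9.10-fold in knockout cells (log2 3.19, rank 12 of 7764). In an additive limma fit with genotype and TNF over the 4 arrays, Irf1 rose with TNF by 2.80 on the log2 scale (SE 0.20, Benjamini-Hochberg adjusted p = 0.00242, higher in 2 of 2 array pairs). This call was lost without the intensity trend (adjusted p = 0.0575) and in a fit on gene means over probe sets (adjusted p = 0.0732), and the adjusted p ranged from 1.73e-42 to 0.0732 over the settings. The lowest values, here and for the other probe sets, rest on 1 residual degree of freedom and no replicates. They do not measure strength of evidence. All settings reuse the same 4 arrays, so passing in many of them is not replication. The unstimulated signal was 1.60-fold lower in knockout than in wild-type cells.

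**Figure D1:**
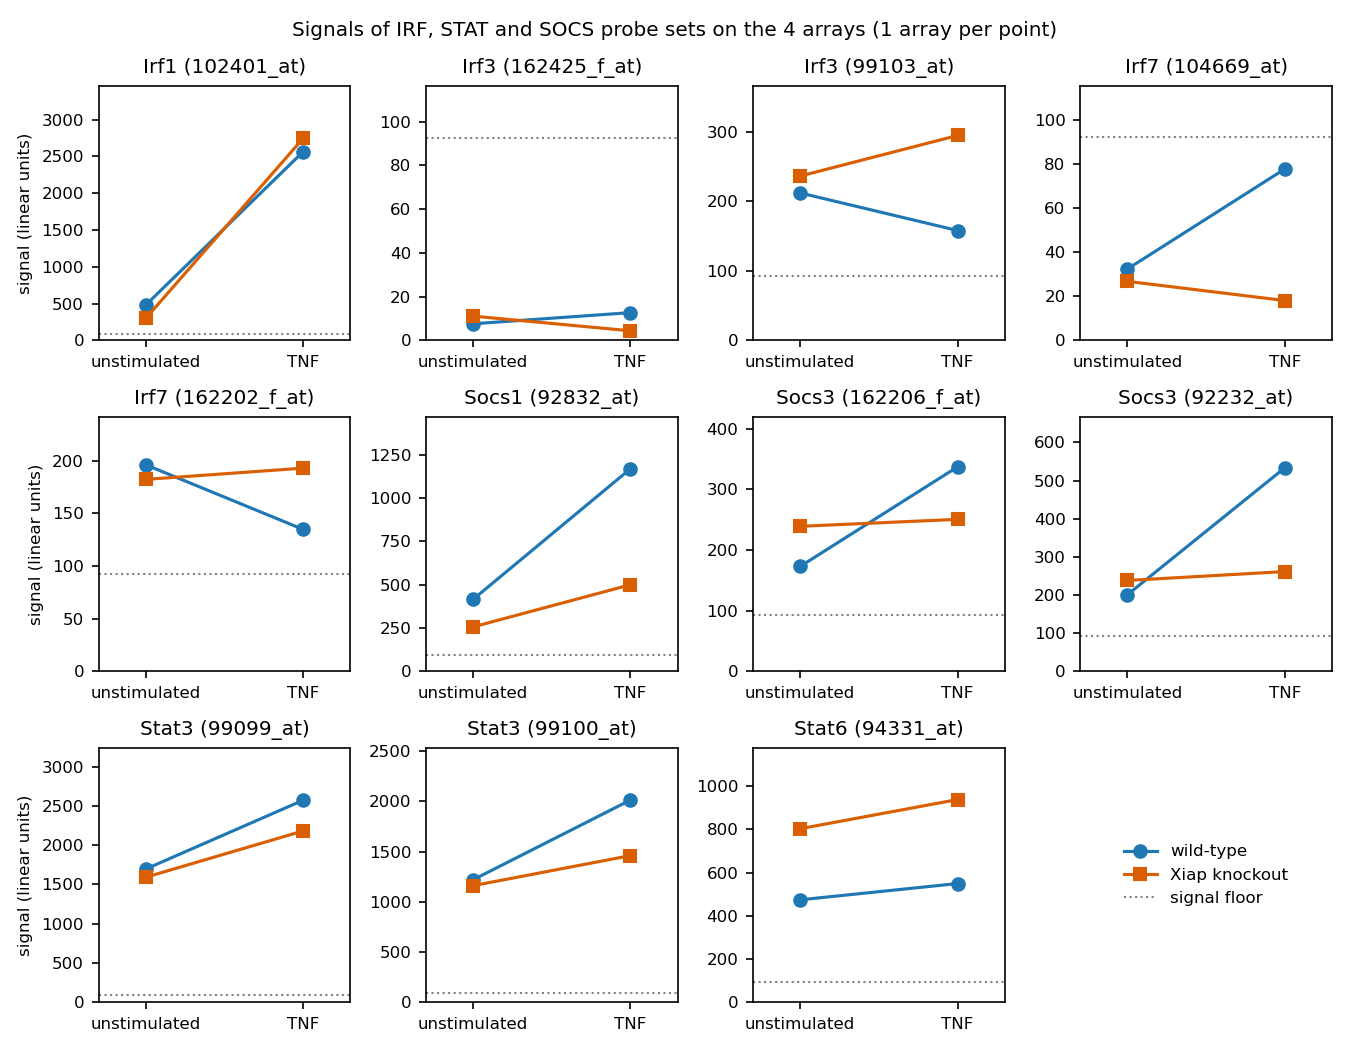
Signals of the 11 probe sets in linear units (each panel has its own axis starting at 0) for unstimulated and TNF-treated cells, with 1 array per point, wild-type in blue circles, Xiap knockout in orange squares, and the signal floor of 92.5 dotted. Irf1 climbs to 2566 and 2748 in the 2 genotypes, whereas Socs3 (92232_at) reaches 533 in wild-type and 262 in knockout cells with TNF.

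Irf3, the constitutively present factor behind the early type I interferon response, had 1 probe set above the floor. Its signal (99103_at) was 212 without and 158 with TNF in wild-type cells, and 237 without and 295 with TNF in knockout cells. The TNF value was therefore the lower one in wild-type and the higher one in knockout cells (log2 -0.42 and 0.32). With TNF, the knockout signal was 1.87-fold the wild-type signal. The other Irf3 probe set (162425_f_at) read 4.4 to 12.7 on every array and gives no fold.

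Irf7, which amplifies interferon production and is itself interferon-induced, had no clear level. One probe set (104669_at) read 32.4 without and 77.8 with TNF in wild-type cells, and 26.8 and 18.1 in knockout cells. All of these lie below the floor, so no fold is given. The other (162202_f_at) read 196 and 135 in wild-type cells and 182 and 193 in knockout cells, a log2 response of -0.54 and 0.08. The suffix f marks, on this array type, probe sets whose probes may also match related sequences.

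Stat3 transcripts were higher with TNF in both genotypes by less than 2-fold on both probe sets. The probe set 99099_at read 1698 without and 2573 with TNF in wild-type cells, and 1593 and 2182 in knockout cells. The probe set 99100_at read 1220 and 2014 in wild-type cells and 1162 and 1461 in knockout cells. On both probe sets the 2 TNF values exceeded the 2 unstimulated ones, and the unstimulated values of the genotypes were close (log2 knockout over wild-type -0.09 and -0.07). The log2 responses were 0.60 and 0.72 in wild-type cells and 0.45 and 0.33 in knockout cells. The additive limma fit gave a TNF effect of 0.53 on each probe set (SE 0.10 and 0.13), with Benjamini-Hochberg adjusted p = 0.0919 and 0.167, which did not pass 0.05. Over the alternative settings these values ran from 0.0211 to 0.326 and from 0.0187 to 0.345, and passed in 2 and 1 of them.

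Stat6 showed a difference between the genotypes and little response to TNF. Its signal was 474 without and 549 with TNF in wild-type cells, and 802 and 937 in knockout cells. Both knockout arrays exceeded both wild-type arrays. The ratio was 1.69-fold without and 1.71-fold with TNF. In the additive limma fit Stat6 was higher in knockout cells by 0.77 on the log2 scale (SE 0.15, Benjamini-Hochberg adjusted p = 0.016, higher in 2 of 2 array pairs). It passed in all 12 settings of this fit, the main one included (adjusted p 0.00486 to 0.0413). The TNF effect was 0.22 (SE 0.15, adjusted p = 0.532).

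Socs1, the feedback inhibitor of Janus kinases best known from interferon-gamma signalling, was higher with TNF and lower in knockout cells. Its signal was 416 without and 1170 with TNF in wild-type cells, and 257 and 500.4 in knockout cells. In each genotype the TNF array was the higher one, and in each state the knockout array was the lower one. The response was 2.81-fold in wild-type cells (log2 1.49) and 1.95-fold in knockout cells (log2 0.96). The TNF effect in the additive limma fit was 1.23 (SE 0.20, Benjamini-Hochberg adjusted p = 0.0537), just short of the threshold. It passed in 7 of 12 settings, with adjusted p from 1.08e-07 to 0.194. In the same limma fit Socs1 was lower in knockout cells, with a genotype effect of -0.96 (SE 0.20, adjusted p = 0.0212, lower in 2 of 2 array pairs). This effect passed in all 12 settings of the fit, the main one included (adjusted p 7.14e-05 to 0.0461).

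Socs3, the feedback inhibitor of interleukin-6 family receptors, was higher with TNF in wild-type cells and close to level in knockout cells. The probe set 92232_at read 201 without and 533 with TNF in wild-type cells, and 238 and 262 in knockout cells. The probe set 162206_f_at read 173 and 337 in wild-type cells and 239 and 251 in knockout cells. On both probe sets the TNF-treated wild-type array stood above the other 3. The response in wild-type cells was 2.65-fold and 1.95-fold (log2 1.41 and 0.96), and in knockout cells 1.10-fold and 1.05-fold (log2 0.14 and 0.07). The additive limma fit, which counts unequal responses as error, gave TNF effects of 0.77 (SE 0.33) and 0.51 (SE 0.28), with Benjamini-Hochberg adjusted p = 0.378 and 0.459. Over the settings the adjusted p ran from 0.00425 to 0.47 and from 0.082 to 0.704, and the first passed in 1 of 12, with equal medians. The wild-type log2 response of 162206_f_at was 0.21 when the floor lay at the 60th percentile.

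Counted over the set, 9 probe sets of the 7 genes exceeded the floor on all 4 arrays and 2 on none. With TNF, 3 of the 9 in wild-type cells (Irf1, Socs1 and 1 of Socs3) passed 2-fold upward and none downward, against 2.54% higher and 2.79% lower among all 7846 probe sets measured. With equal medians as the scaling, the count was 5, and with a floor at the 60th percentile it was 2, since Socs3 (92232_at) then had a log2 response of 0.88. Their median log2 response was 0.72, and that of all probe sets -0.10. In knockout cells 1 of 9 (Irf1) was at least 2-fold higher, against 1.57% of 7764, and none was 2-fold lower (0.399%). The median was 0.32 for the 9 and -0.05 for all probe sets. With equal medians the knockout count was 2.

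**Figure D2:**
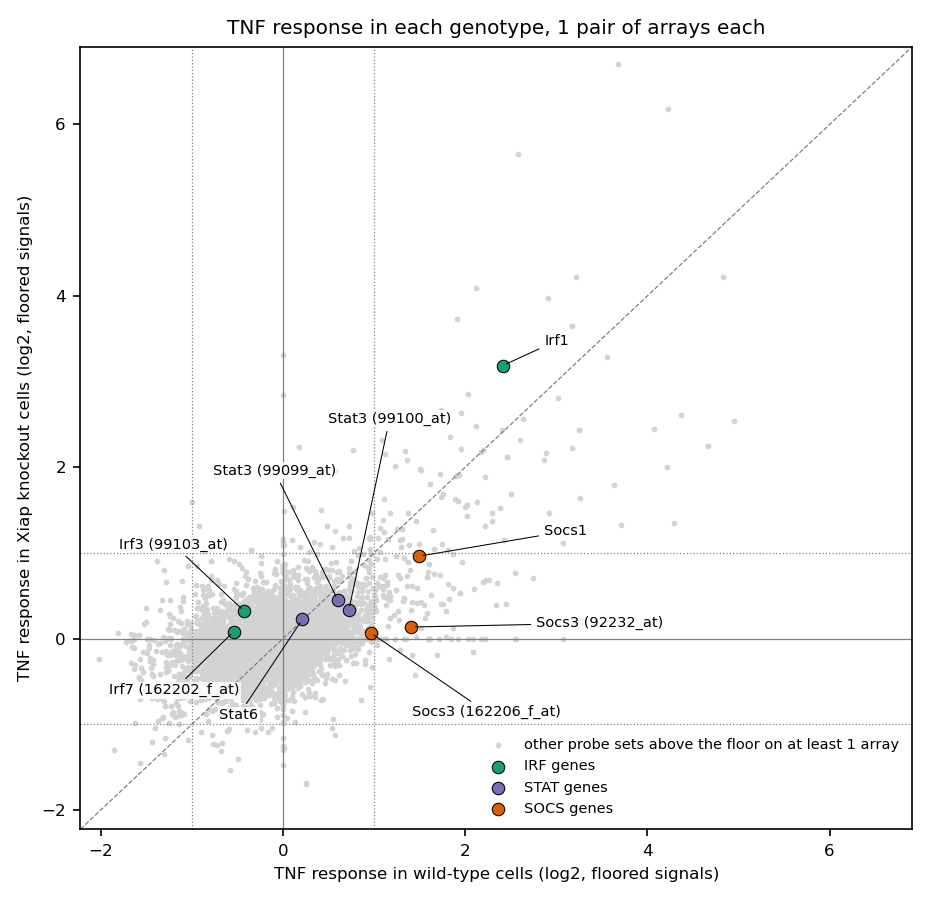
Log2 TNF response in wild-type cells (horizontal) against knockout cells (vertical), each from 1 pair of arrays on floored signals, with every measured probe set in grey, the 9 measured IRF, STAT and SOCS probe sets in colour, dotted lines at 2-fold and a dashed line of equal response. Irf1 lies above the dashed line at 2.41 and 3.19, and Socs3 (92232_at) below it at 1.41 and 0.14.

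The difference of response, which is the knockout minus the wild-type log2 response, could not be tested with 1 array per group. It was -1.27 and -0.89 on the 2 Socs3 probe sets, the first of which was past 2-fold (background 1.23% lower and 2.69% higher of 8228 probe sets). It was -0.53 for Socs1, -0.15 and -0.39 for Stat3 and 0.01 for Stat6. It was above 0 for Irf1 (0.77), whose response was the larger one in the knockout. It was also above 0 for Irf3 (99103_at, 0.74) and Irf7 (162202_f_at, 0.62). Their log2 responses were below 0 in the wild type and above 0 in the knockout. The other probe set of each gene lay below the floor on all 4 arrays, and its signals went the other way. For Irf7 (104669_at) they went from 32.4 to 77.8 in wild-type and from 26.8 to 18.1 in knockout cells. The count past 2-fold lower was 1 of 9. It became 2 with quantile normalization or equal medians, and 0 with a floor at the 60th percentile. With a floor at the 20th percentile it was also 2. The values of the 9 did not change there, so the added probe set was one below the main floor.

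Between genotypes, none of the 9 probe sets differed 2-fold without TNF (background 4.53% higher and 4.58% lower of 8060). With TNF, Socs1 was 2.34-fold and Socs3 (92232_at) 2.04-fold lower in knockout cells, while none was 2-fold higher (background 4.97% lower and 5.83% higher of 7754). The Socs3 value was under 2-fold with no floor or with a floor at the 60th percentile. Irf1 had nearly the same signal in the 2 TNF-treated genotypes (1.07-fold).

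In the additive limma fit, 1 of 9 probe sets rose with TNF and none fell after Benjamini-Hochberg adjustment over 8228 probe sets, against 1.08% and 0.0851% of all. At an unadjusted p below 0.05, 4 of the 9 passed for TNF, where 1126 of all 8228 did. For genotype, 1 was higher and 1 lower after adjustment, against 10.2% and 9.19% of all. At an unadjusted p below 0.05, 2 of the 9 passed for genotype, where 2762 of all did. The fit has 1 residual degree of freedom, the difference of response itself, and no culture was replicated. An effect of Xiap loss and other differences between these 2 cell cultures cannot be told apart.

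**Figure D3:**
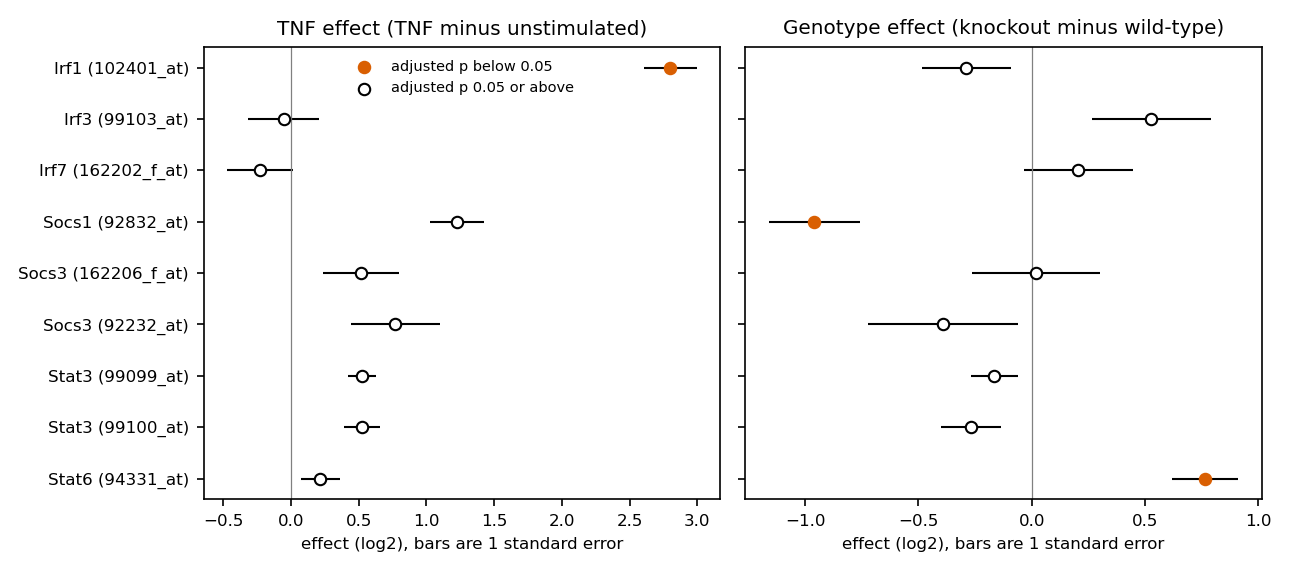
Effects of TNF (left) and of genotype (right) in the additive limma fit on the log2 scale for the 9 measured probe sets, with bars of 1 standard error and filled points where the adjusted p was below 0.05. Irf1 stands apart at 2.80 for TNF, and Socs1 (-0.96) and Stat6 (0.77) are the filled points for genotype.

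The other genes of the pathway were described from 9 lists holding 150 distinct genes, of which 119 had a probe set, with the brightest probe set standing for a gene. In wild-type cells 40 of the 89 genes measured passed 2-fold upward with TNF and none downward, against 2.64% higher and 2.61% lower of 5911 genes. In knockout cells 23 of 87 were higher and none lower, against 1.48% and 0.409% of 5868. In the additive limma fit 17 of 92 rose and none fell, against 1.15% and 0.0972% of 6174 genes. In the difference of response 3 of 92 were at least 2-fold higher and 14 lower, against 2.53% and 1.13%. Of the 40 in wild-type cells, 23 were interferon-induced targets. When both arrays compared had to exceed the floor, the upward counts were 32 in wild-type and 14 in knockout cells. Both counts in the difference of response also fell when every array had to exceed it. Genes such as Il6 and Rsad2 counted there only through their wild-type TNF array, so they could only be lower.

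Ligands were mostly dim: 3 of 13 cytokine genes on the array were measured in each genotype. Il6, which signals through STAT3, read 5.8 without and 431 with TNF in wild-type cells, and 3.1 and 33.7 in knockout cells. The wild-type difference is at least 4.66-fold, and both knockout arrays lay below the floor. Ctf1, a ligand of the interleukin-6 family, was higher in knockout cells in the limma fit on its brightest probe set (log2 0.83, SE 0.21, adjusted p = 0.0384). The other Ctf1 probe set did not keep 1 direction. Its knockout minus wild-type log2 was -0.55 without TNF, with the knockout signal below the floor, and 0.53 with TNF. Ifnb1 and Ifng, the genes of interferon beta and gamma, lay below the floor on every array.

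Among 14 measured receptor chains, 4 passed 2-fold upward with TNF in the wild type and 3 in the knockout, while 3 rose in the limma fit. Ifnar2, a subunit of the type I interferon receptor, read 493 and 2802 in wild-type cells and 222 and 716 in knockout cells (log2 responses 2.51 and 1.69, limma adjusted p = 0.0106). Its other probe set gave only 0.22 and 0.34. Osmr, the oncostatin M receptor chain, had log2 responses of 1.81 and 1.04, and Il6st, the shared chain of the interleukin-6 family, 0.59 and 0.69. The second Il6st probe set gave -0.21 and 0.18. Between genotypes 5 of the 14 (Ifnar1, Ifnar2, Ifngr2, Il10rb and Ghr) were lower in knockout cells in the fit and none higher, where 9.64% of all genes were lower and 10.6% higher.

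Of 4 Janus kinase genes, Jak2 passed 2-fold with TNF in wild-type cells, and none did in knockout cells. It read 158 and 725 in wild-type and 212 and 335 in knockout cells, log2 responses of 2.20 and 0.66. Its other probe set lay below the floor throughout. Jak1 was lower in knockout cells in the additive limma fit (log2 -0.90, SE 0.11, adjusted p = 0.00345, lower in 2 of 2 array pairs).

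Among other IRF and STAT genes, 4 of 7 on the array were measured and none passed 2-fold with TNF. Irf9, the DNA-binding subunit of an interferon-activated transcription factor complex, read 579 and 982 in wild-type and 393 and 386 in knockout cells, and it was lower in knockout cells in the limma fit (log2 -0.95, SE 0.23, adjusted p = 0.0321). Of 9 measured negative regulators besides Socs1 and Socs3, Ptpn1, a phosphatase acting on Janus kinases, read 803 without and 1959 with TNF in wild-type cells (2.44-fold), and 1787 and 1624 in knockout cells. Socs2, Socs5 and Cish had log2 responses between -0.73 and 0.15 in the 2 genotypes. Among 7 measured activators of IRF3 and IRF7, Ifih1, a sensor of viral RNA, was 2.14-fold and Tank 2.05-fold higher in wild-type cells. On floored signals none of the 7 passed in knockout cells. There Ifih1 read 54.5 and 150.7, the first below the floor. Its knockout difference is therefore at least 1.63-fold, and whether it reached 2-fold cannot be told. In the limma fit 3 of these activators (Tank, Ifih1 and the adaptor gene Myd88) were lower in knockout cells and none was higher, where 9.64% of all genes were lower and 10.6% higher.

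Interferon-induced targets passed 2-fold upward with TNF in 23 of 30 cases in the wild type (median log2 1.66, against -0.10 for all genes) and in 15 of 29 in the knockout (median 1.05, against -0.04). None was 2-fold lower, and 9 of 31 rose in the limma fit (Gbp2, Gbp3, Ifi47, Tapbp, Psmb8, Psmb10, H2-D1, H2-K1 and Vcam1). Some targets, such as Gbp2, Ifi47 and Cxcl10, counted as measured only through their TNF arrays, so their responses could only be upward. The list was also chosen with earlier results known, so these counts and medians are descriptions and not tests. Gbp2, a guanylate-binding GTPase gene, differed by at least 28.4-fold in the wild type and at least 18.6-fold in the knockout. Psmb10, an immunoproteasome subunit gene, had log2 responses of 1.84 and 2.36. Cxcl10, a chemokine gene, read 51.3 and 1811 in wild-type and 4.1 and 235 in knockout cells. Of the antiviral genes, Ifit1 read 170 and 2230 in wild-type and 5.1 and 232 in knockout cells, and Ifit3 read 268 and 1461 and 55.2 and 123. With TNF 9 of 31 targets were at least 2-fold lower and 1 higher in knockout than in wild-type cells, against 5.01% lower and 5.62% higher of 5852 genes. Without TNF 3 of 23 were lower and 2 higher, against 4.7% and 4.55% of 6062. For genotype the fit called Ifit1, Ifit3, Ifi204, Vcam1 and Trim25 lower in knockout cells and no target higher.

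STAT3-associated targets passed 2-fold upward in 9 of 19 cases in the wild type and 6 of 18 in the knockout, against 2.64% and 1.48% of all genes. In the limma fit 6 of 19 rose with TNF (Bcl3, Junb, Cebpb, Pim1, Saa3 and Osmr), against 1.15% of all. Cebpd, a transcription factor gene, read 1211 and 10227 in wild-type and 892 and 1939 in knockout cells. Bcl3, an atypical member of the IkB family, was at least 9.53-fold and at least 5.40-fold higher. Under TNF 6 of 19 were 2-fold lower in knockout cells and none higher, against 5.01% and 5.62% of all genes. Among the lower ones, Fos counted only through its wild-type array (549.5 against 49.7), so it could only be lower. For genotype the fit called Cebpb, Pim1, Pim3, Hp and Vegfa lower and Timp1 higher in knockout cells, where 9.64% of all genes were lower and 10.6% higher. The second Pim1 probe set differed, with a knockout minus wild-type log2 of 0.48 without and -0.03 with TNF. Of the STAT6-associated targets 8 were on the array and 2 were measured, so they say little about Stat6. Many of these targets also answer to NF-kB, and the lists overlap in Osmr, Il4ra and Il13ra2.

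**Figure D4:**
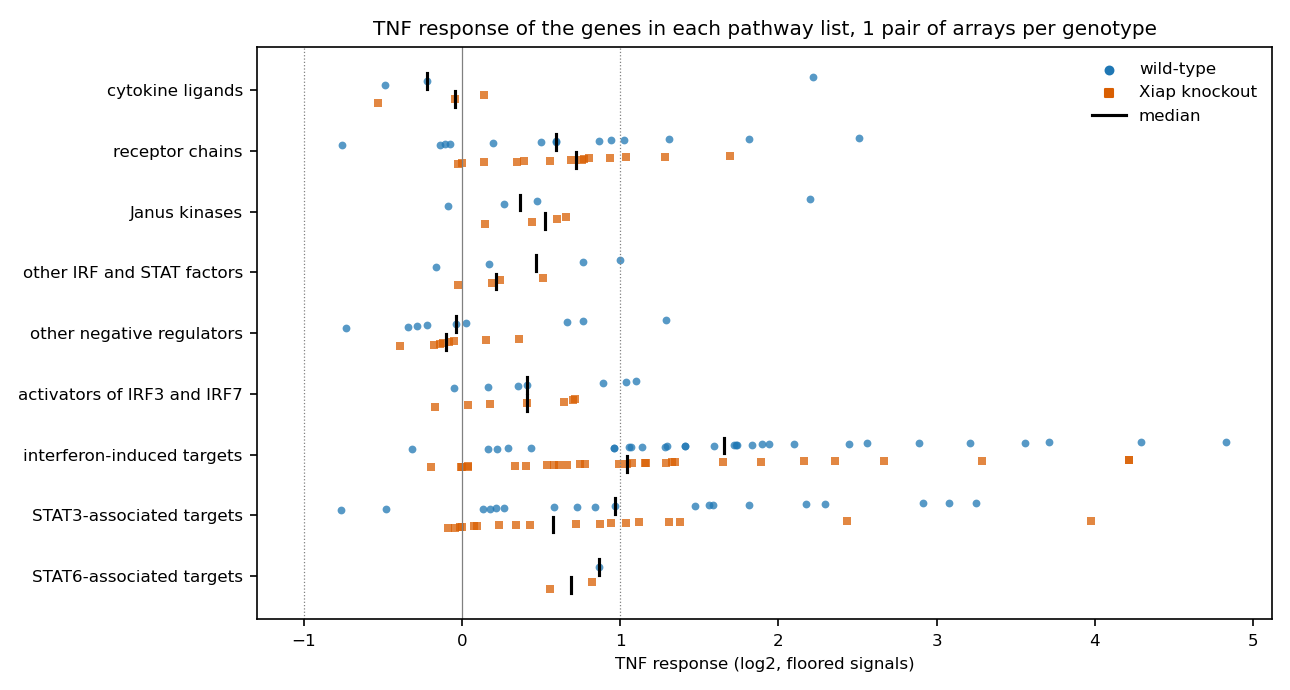
Log2 TNF responses on floored signals of the measured genes in each pathway list, wild-type in blue circles and Xiap knockout in orange squares, with a black bar at the median and dotted lines at 2-fold. The interferon-induced targets spread furthest to the right, with medians of 1.66 in wild-type and 1.05 in knockout cells.

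Genes with the profile most like a member over the 4 arrays were found by the distance between log2 values after each gene's mean was subtracted, among 5838 genes above the floor on at least 2 arrays. Nearest to Irf1 were Fas (distance 0.54), Nfkbie (0.55), Gbp7 (0.62) and Ccl9 (0.64), of which Fas and Gbp7 lay below the floor in both unstimulated cultures, so their distances are set by the floor. Nearest to Socs1 was Cebpb, a transcription factor gene, at a distance of 0.09, with signals of 2871 and 7988 in wild-type and 1883 and 3626 in knockout cells. Its log2 responses of 1.48 and 0.95 sit beside 1.49 and 0.96 for Socs1. Fam20c (0.25), Plscr1 (0.27) and Gem (0.30) came next, Gem with 1 array below the floor. Nearest to Socs3 (92232_at) were Znfx1 (0.24), Slc7a7 (0.27, with 1 array below the floor), Myc (0.27) and Nop2 (0.29). Myc, a growth-promoting transcription factor gene on the STAT3-associated list, read 259 and 767 in wild-type and 266 and 314 in knockout cells, so its TNF-treated wild-type array also stood above the other 3. Likeness over 4 arrays is a description of these cultures only.

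**Figure D5:**
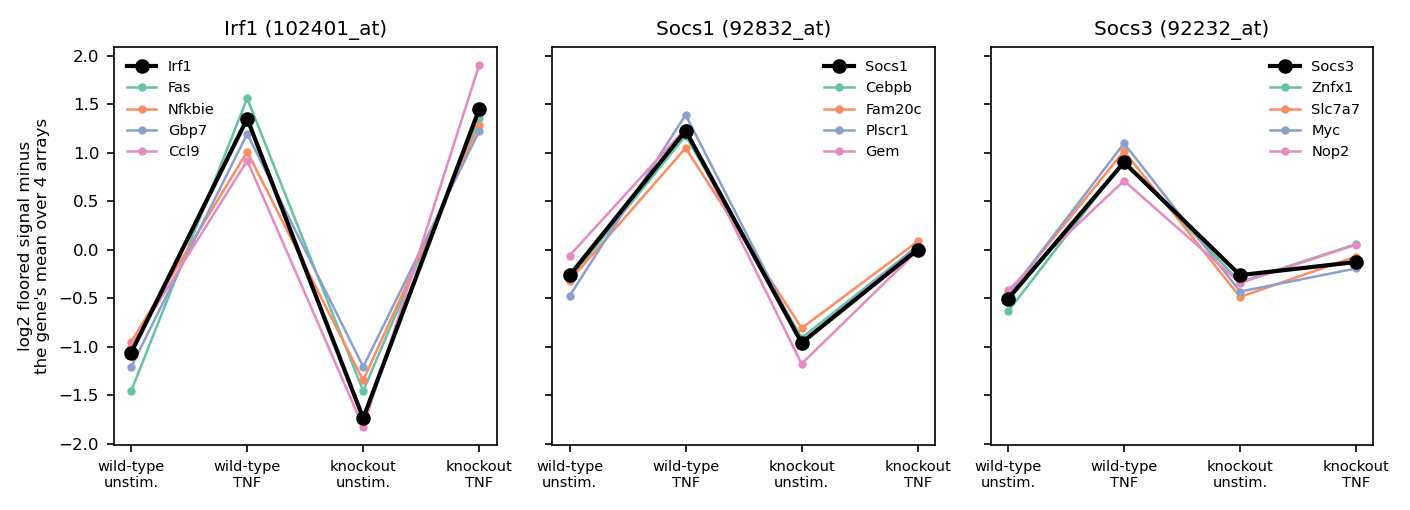
Log2 floored signals on the 4 arrays (1 array per group, lines only join the points) after subtraction of each gene's mean, for Irf1, Socs1 and Socs3 in black and the 4 genes nearest to each in colour. Irf1 and its neighbours are high on both TNF arrays, whereas Socs3 and its neighbours are high on the TNF-treated wild-type array.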

How the data were processed

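Total RNA was profiled on 4 Affymetrix U74Av2 arrays, 1 per combination of genotype and treatment, grouped by their titles. The values deposited by the authors are linear probe set intensities, and the submitters' processing notes name MAS5. No source used here names its version or settings, and detection calls were not used. All columns share a trimmed mean of 500.3 (2% left out at each end), so they had been scaled before deposit. Of 12488 probe sets, 66 controls were left out. The platform's annotation named 1 symbol for 10833 probe sets, several for 396 and none for 1193.

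Each array was brought to that trimmed mean (factor 1.0), and signals were raised to a floor at the 40th percentile (92.5) and converted to log2. A probe set counted as measured when at least 1 array compared exceeded the floor. A fold with 1 array at the floor is a bound, written as at least N-fold. Such a floor understates changes of dim genes. Comparisons of 2 arrays have no test, and changes of at least 2-fold were counted. limma 3.58.1 (R 4.3.3; lmFit and eBayes, with a trend on intensity; Benjamini-Hochberg over 8228 probe sets, threshold 0.05) fitted genotype and TNF additively, and was tested on simulated data. Those data had additive effects, 1 common spread and no floor, so they do not cover genes with unequal responses. Promoter sequences are RefSeq's (GRCm38.p6), and all 7 genes were matched by symbol.

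The naming rule took every probe set of the members, Xiap, from each list and comparison up to 4 genes past 2-fold by size (or the largest 1 where none passed), any list gene called in the fit, and the 4 genes nearest to each member that passed 2-fold with TNF. Ifnb1, Ifng, Socs2, Socs5, Cish, Thy1, S100a4, Pdgfrb, Flt1, Kdr, Pecam1, Ptprc, Il6ra, Psmb9 and the further probe sets of listed genes were added after their values were seen. The same held for the markers Cd14, Csf1r, Cd68 and Laptm5. Not every gene the size rule allows is named, and Psmb10, Tank and other examples were picked among those it or the fit allows. The members and lists were chosen with earlier results of these data known. Alternatives were the values without rescaling, equal medians, quantile normalization, a floor at the 20th or 60th percentile, no floor with a pseudocount of 16, every array above the floor, no intensity trend, robust eBayes, and fits over genes. The values without rescaling nearly equal the main ones. For a gene with 1 probe set, the fits over genes reuse its main values.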

Additional observations from a re-analysis of the deposited data

Results flagged for a closer look

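The TNF array lay above the unstimulated array in one genotype and below it in the other for 2 probe sets of the IRF genes. The same held for Il6ra, Irf9, Ptpn1 and Isg15 among list genes above the floor on all 4 arrays that were 2-fold different in some comparison or called in the fit. Other list genes outside that limit, such as Cish, also had opposite signs and are not described. Each direction rests on 1 pair of arrays, and the difference was not tested. The knockout minus wild-type log2 response was 0.74 for the Irf3 and 0.62 for the Irf7 probe set above the floor, both with the lower TNF value in wild-type cells. The Irf3 and Irf7 probe sets below the floor went the other way, with the higher TNF value in wild-type cells. For Il6ra, the interleukin-6 receptor chain, the difference was 0.49 (393 and 357 in wild-type cells, 189 and 241 in knockout cells). The other 3 had the higher TNF value in wild-type cells. The difference was -0.79 for Irf9, -1.43 for Ptpn1 and -1.61 for Isg15, the ubiquitin-like interferon target (608 and 1619 in wild-type cells, 478 and 418 in knockout cells).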

How the results depend on the processing

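No called value changed its direction. Over all alternatives, 171 summary counts stayed within 1.5 times of the main count and 45 did not, and the cause of those changes was not tested. The 171 include counts without rescaling, where the values nearly equal the main ones. They also include 2-fold counts of the 9 probe sets with every array above the floor, which could not change. In the additive limma fit, the main counts for TNF were 1 IRF, STAT or SOCS probe set higher and 96 of all called, and 1597 of all for genotype. The first count was 2 with quantile normalization, a floor at the 60th percentile, no floor, robust eBayes or the fit on the brightest probe set of a gene. It was 3 with every array above the floor, 5 with equal medians, and 0 without the intensity trend or on gene means. The count of all called for TNF was 206 with quantile normalization, 493 with equal medians, 217 with no floor, 215 with every array above the floor, 15 without the trend and 6 on gene means. For genotype it was 1050 without the trend and 893 on gene means.

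Among the 9 probe sets, equal medians gave 5 (main 3) past 2-fold upward with TNF in wild-type and 2 (main 1) in knockout cells. The count lower in knockout cells with TNF (main 2) was 1 with no floor or the floor at the 60th percentile. For a lower difference of response (main 1) it was 2 with quantile normalization or equal medians, and 0 with the floor at the 60th percentile. With the floor at the 20th percentile it was 2 through a probe set outside the 9, below the main floor. The knockout minus wild-type value of Irf1 with TNF ran from -0.10 to 0.18.

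In the lists, the floor at the 20th percentile gave 1 gene lower with TNF in each genotype (main 0). Within knockout cells, the count higher with TNF than without it (main 23) was 14 with the floor at the 60th percentile or every array above the floor. Unstimulated, knockout against wild-type, the counts (main 3 higher and 9 lower) were 5 and 18 at the 20th and 1 and 2 at the 60th percentile. With TNF, the count higher (main 1) was 3 at the 20th percentile, 2 with no floor, and 0 with quantile normalization, at the 60th percentile or with every array above the floor. For the difference of response, the count higher (main 3) was 0 with quantile normalization, at the 60th percentile or with every array above the floor, 1 with equal medians and 5 at the 20th percentile. The count lower (main 14) was 22 with equal medians and 7 with every array above the floor.

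Equal medians moved the median of all probe sets by 0.27 for TNF in wild-type cells, -0.18 between genotypes with TNF and -0.21 for the difference. The split past 2-fold, higher against lower, was 199 to 219, 452 to 385 and 221 to 101 in the main setting for these comparisons. It was 367 to 97, 323 to 573 and 124 to 204 with equal medians, and 252 to 117, 352 to 420 and 146 to 146 with quantile normalization. Signals near the floor limit Irf3, Irf7 and Socs3: the Irf3 difference of response was 0.02 with the floor at the 60th percentile. No paired analysis was possible because each group had 1 array and the labels carry no replicate numbers, so the genotype term of the additive fit is the only block. No replicate could be left out.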
